A study of Mus musculus with 2 samples.

Results

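The genes described here are 41 of the 33938 genes in the deposited count table, taken by symbol: menin and the subunits of the MLL and SETD1 histone H3 lysine 4 methyltransferase complexes (15 genes), histone demethylases of lysine 4 and lysine 27 (5 genes), Polycomb repressive complex 2 or PRC2 (7 genes), Polycomb repressive complex 1 or PRC1 (10 genes), and the ASXL proteins with the deubiquitinase BAP1 (4 genes). Each symbol matched a single row, and 3 of the 41 genes are X-linked.

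Menin, encoded by Men1, is a scaffold protein that binds the methyltransferases MLL1 (Kmt2a) and MLL2 (Kmt2b) and helps to place them, with Psip1, on chromatin. These enzymes write methyl marks on lysine 4 of histone H3 at active genes, while PRC2 writes the repressive lysine 27 mark through Ezh2 or its relative Ezh1, and PRC1 ubiquitinates histone H2A through Ring1 or Rnf2. In the developing cortex this opposition is known for its part in timing the passage of radial glia, the stem cells of the cortical wall, from self-renewal to the making of neurons and later of glia.

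The samples were nuclei from mouse embryonic neocortex, profiled with a 10x Genomics droplet kit. One library carried the genotype label MEN1-NCKO and the other the label MEN1-F/F. The labels do not spell out either abbreviation, and the sources used here do not give the embryonic age, the number of embryos per library, the Cre driver or the deleted exons. With 1 library per genotype a difference between genotypes cannot be told apart from a difference between libraries, so no p-value is given and the bracketed ranges are exact 95% intervals that cover counting error only, with each unique molecular identifier (UMI) taken as an independent molecule.

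After filtering, 9807 MEN1-NCKO nuclei held 41395317 UMIs and 6130 MEN1-F/F nuclei held 26781628 UMIs, with medians of 3578 and 3666.5 UMIs per nucleus; 15 barcodes were shared by both libraries as deposited. Clusters were named from marker genes, which gave 310 MEN1-NCKO and 223 MEN1-F/F radial glia-like nuclei, 33 and 39 intermediate progenitor-like nuclei, and 4140 and 2554 cortical neuron-like nuclei (upper layer, layer 5 and layer 6 together). Pax6, one of the markers that gave the radial glia their name, stood at 338 UMIs per 1000000 (CPM) in MEN1-NCKO and 247 CPM in MEN1-F/F radial glia-like nuclei, against 2.66 and 2.38 CPM in the cortical neurons of the same libraries. Eomes, likewise a naming marker, stood in the intermediate progenitors at 424 CPM in MEN1-NCKO and 667 CPM in MEN1-F/F. A set of 202 MEN1-NCKO and 144 MEN1-F/F nuclei with Dlx1, Dlx2 and Top2a was named ganglionic eminence progenitor-like, although the label gives neocortex as the tissue. Of its marker list 6 genes were raised. Others were low in MEN1-NCKO and MEN1-F/F: Gsx2 at 7.94 and 11.2 CPM, Gsx1 at 1.99 and 2.79 CPM, and Vax1 at 0.0 and 8.37 CPM. The score was 3.486, with intermediate progenitor next at 2.64. Layer 5-like nuclei were 13.9% of the MEN1-NCKO and 9.09% of the MEN1-F/F nuclei, and upper-layer-like nuclei 17.7% and 21.6%.

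The Men1 level was higher in MEN1-NCKO over all kept nuclei, short of 1.5-fold. There were 562 UMIs of Men1 in the MEN1-NCKO library and 284 UMIs in the MEN1-F/F library, which is 13.6 CPM (12.5 to 14.7) against 10.6 CPM (9.41 to 11.9), a ratio of 1.28 (1.11 to 1.48). In cortical neurons it stood at 13.9 CPM in MEN1-NCKO and 9.95 CPM in MEN1-F/F. In cortical progenitors, radial glia and intermediate progenitors together, it had 8 UMIs in MEN1-NCKO and 17 UMIs in MEN1-F/F, or 9.85 CPM (4.25 to 19.4) against 24.3 CPM (14.2 to 39.0). The ratio in progenitors was 0.405 (0.151 to 0.989), and both counts together were under the minimum of 50 UMIs set for a fold call. The kit reads RNA from its 3′ end and the table gives 1 count per gene; as the deleted part is not given, this count does not check the genotype labels. The gene lies at chr19:6334979-6340891 (GRCm38, plus strand) and no other annotated gene overlaps it.

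Progenitors were set against neurons within each library, and a member was called when it differed by at least 1.5-fold the same way in both libraries on the scale of CPM plus 5, which understates the change of low genes. Of 40 members with at least 50 UMIs in each library, 6 were higher in progenitors (Kmt2c, Rbbp5, Kdm6a, Suz12, Ring1 and Asxl2) and 1 was lower (Asxl3); Cbx2 had too few UMIs. Among all 12515 genes compared in the same way, 21.0% were called higher and 15.2% lower, so the members' shares lay below both backgrounds. The members' median log2 difference was 0.30 in MEN1-NCKO and 0.31 in MEN1-F/F, beside 0.20 and 0.25 over all genes. The astrocyte marker list summed to 1476 CPM in MEN1-NCKO and 910 CPM in MEN1-F/F progenitors, against 163 and 112 CPM in neurons. In every one of these groups 8 of 8 markers were detected, but some barely: Aqp4 and Gfap stood at 0.0742 CPM in MEN1-F/F neurons. The part of the astrocyte list in the differences was not tested. Progenitor nuclei were also shallower, with medians of 2069 UMIs in MEN1-NCKO and 2278 UMIs in MEN1-F/F, against 4351 and 4539 UMIs in the neurons.

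**Figure D1:**
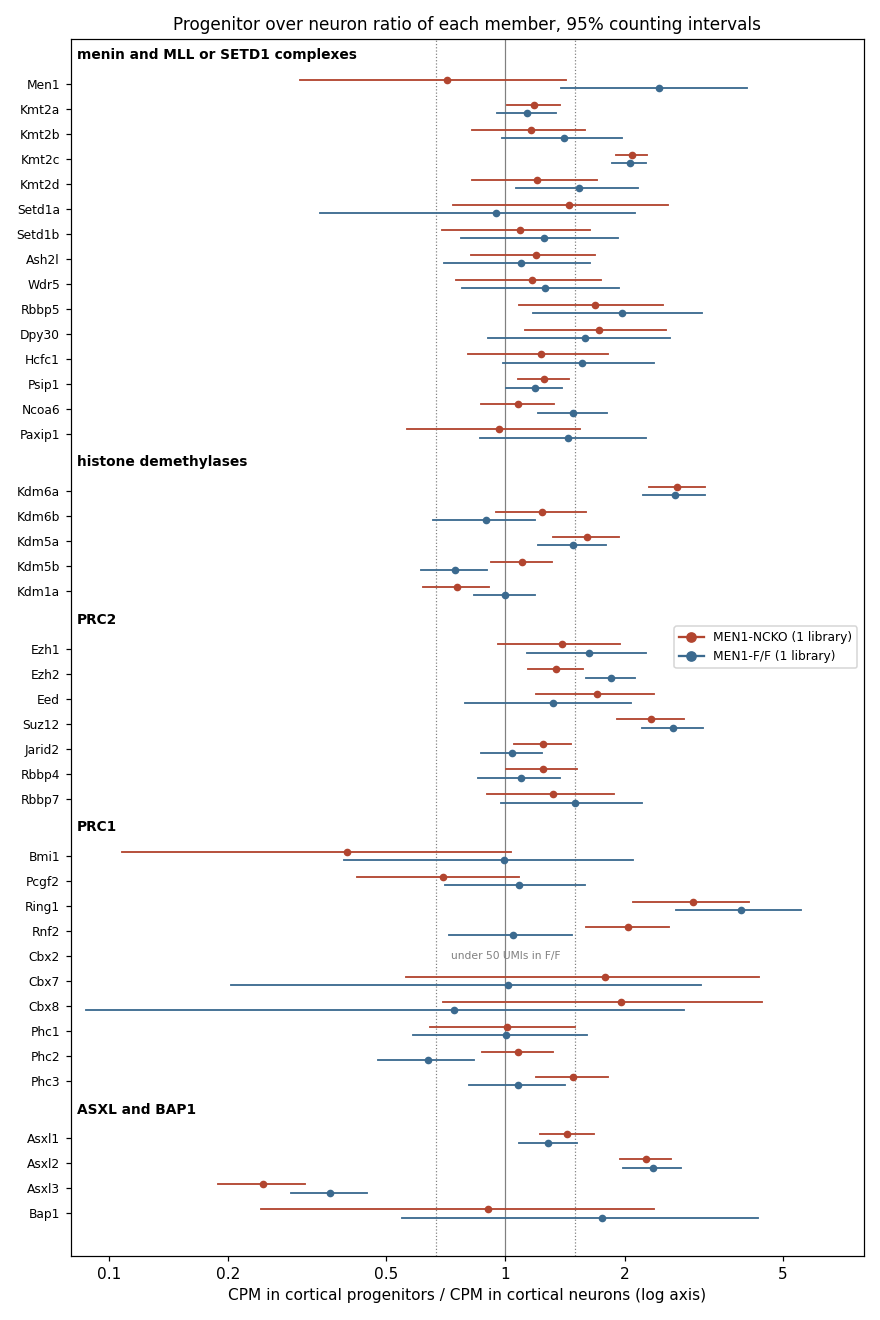
Ratio of CPM in cortical progenitors (radial glia-like and intermediate progenitor-like) to CPM in cortical neurons for each member, on a log axis, with MEN1-NCKO above MEN1-F/F and bars for exact 95% counting intervals. Dotted lines mark 1.5-fold; Kmt2c, Rbbp5, Dpy30, Kdm6a, Suz12, Ring1 and Asxl2 lie to the right of them and Asxl3 to the left in both libraries, Dpy30 falling short of a call once 5 is added to its CPM.

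Among the menin and methyltransferase genes, Kmt2c was the one with the clearest excess in progenitors. It encodes MLL3, which places the monomethyl mark at enhancers. Kmt2c stood at 661 CPM in progenitors and 318 CPM in neurons of MEN1-NCKO, and at 641 and 312 CPM in those of MEN1-F/F, ratios of 2.08 (1.90 to 2.27) and 2.06 (1.86 to 2.27). Its closest relative Kmt2d, which encodes MLL4, had ratios of 1.2 (0.822 to 1.71) and 1.54 (1.06 to 2.16) and was not called. Rbbp5, a core subunit shared by all complexes of the family, passed on few molecules, with 26 and 408 UMIs in progenitors and neurons of MEN1-NCKO and 20 and 196 in those of MEN1-F/F. Its excess was past 1.5-fold in 8 of 15 alternative settings in MEN1-NCKO and in 11 of 15 in MEN1-F/F, while Kmt2c was past it in 15 of 15 in both.

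Kmt2a, the partner of menin, was nearly level. It stood at 214 CPM in progenitors and 181 CPM in neurons of MEN1-NCKO, and at 206 and 182 CPM in those of MEN1-F/F, with ratios of 1.18 (1.01 to 1.37) and 1.13 (0.951 to 1.34). Psip1, which tethers the menin complex to chromatin, gave similar ratios of 1.25 (1.07 to 1.45) in MEN1-NCKO and 1.18 (1.0 to 1.39) in MEN1-F/F. The other subunits not named so far (Kmt2b, Setd1a, Setd1b, Ash2l, Wdr5, Dpy30, Hcfc1, Ncoa6 and Paxip1) were uncalled, from Paxip1 at 0.963 to Dpy30 at 1.72 in MEN1-NCKO and from Setd1a at 0.948 to Dpy30 at 1.58 in MEN1-F/F.

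The demethylases differed from each other. Kdm6a, also called UTX, removes lysine 27 methylation and is a subunit of the MLL3 and MLL4 complexes. Kdm6a stood at 202 CPM in progenitors and 74.4 CPM in neurons of MEN1-NCKO, and at 202 and 75.6 CPM in those of MEN1-F/F, ratios of 2.71 (2.30 to 3.19) and 2.67 (2.22 to 3.19). Kdm6b, the inducible enzyme with the same substrate, stood at 77.5 and 62.6 CPM in MEN1-NCKO and at 70.1 and 78.6 CPM in MEN1-F/F. For each Kdm6b molecule there were 2.60 Kdm6a molecules (1.94 to 3.54) in MEN1-NCKO progenitors and 2.88 (2.07 to 4.07) in MEN1-F/F progenitors, against 1.19 (1.10 to 1.28) and 0.961 (0.881 to 1.05) in the neurons. Kdm6a has a Y-linked relative, Uty, which had 11 UMIs in MEN1-NCKO and 16 UMIs in MEN1-F/F, while Xist, the transcript that coats the inactive X chromosome, stood at 2649 and 2549 CPM.

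The lysine 4 demethylases gave no call. Kdm5a was just under the line in 1 library, at 1.60-fold (1.31 to 1.94) in MEN1-NCKO and 1.48-fold (1.21 to 1.80) in MEN1-F/F. Kdm5b had a ratio of 1.10 (0.920 to 1.31) in MEN1-NCKO and 0.746 (0.612 to 0.901) in MEN1-F/F, on opposite sides of 1. Kdm1a, or LSD1, had ratios of 0.754 (0.620 to 0.909) and 0.999 (0.833 to 1.19).

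In PRC2, Suz12, the subunit that holds the complex together, was higher in progenitors in both libraries. Suz12 stood at 140.3 CPM in progenitors and 60.2 CPM in neurons of MEN1-NCKO, and at 205 and 77.4 CPM in those of MEN1-F/F, ratios of 2.33 (1.91 to 2.83) and 2.64 (2.20 to 3.15). Ezh2, the catalytic subunit known for its place in dividing cells, passed the line in 1 library: 203 and 151 CPM in MEN1-NCKO, 309 and 167 CPM in MEN1-F/F, ratios of 1.34 (1.14 to 1.57) and 1.85 (1.60 to 2.13). Ezh1 is the relative known from nondividing cells. Its level in progenitors and neurons was 43.1 and 31.0 CPM in MEN1-NCKO and 54.4 and 33.6 CPM in MEN1-F/F. Ezh1 too passed the line in MEN1-F/F alone, as Ezh2 did. The share of Ezh1 beside Ezh2 in neurons was within the counting error of that in progenitors. There were 4.71 Ezh2 molecules per Ezh1 molecule (3.26 to 7.0) in MEN1-NCKO progenitors and 5.68 (4.01 to 8.25) in MEN1-F/F progenitors, beside 4.88 (4.48 to 5.31) and 4.99 (4.51 to 5.53) in the neurons. Eed, which reads the lysine 27 mark, had ratios of 1.70 (1.19 to 2.37) and 1.32 (0.792 to 2.07), and Jarid2, Rbbp4 and Rbbp7 were uncalled, from 1.24 to 1.32 in MEN1-NCKO and from 1.04 to 1.496 in MEN1-F/F.

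In PRC1, of the 2 ubiquitin ligases Ring1 was called and Rnf2 was not, though both were past 1.5-fold in MEN1-NCKO. Ring1 stood at 50.5 CPM in progenitors and 16.9 CPM in neurons of MEN1-NCKO, and at 54.4 and 13.9 CPM in those of MEN1-F/F, ratios of 2.98 (2.10 to 4.12) and 3.92 (2.69 to 5.58). With intermediate progenitors alone, where Ring1 had 1 UMI in MEN1-NCKO and 5 UMIs in MEN1-F/F, the log2 difference from neurons was -0.27 and 1.70. Rnf2 was higher in MEN1-NCKO progenitors, at 2.04-fold (1.59 to 2.58), but 1.04-fold (0.721 to 1.47) in MEN1-F/F. Bmi1, a Polycomb ring finger protein known for keeping neural stem cells in cycle, had 4 and 7 UMIs in the progenitors of MEN1-NCKO and MEN1-F/F, with ratios of 0.398 (0.108 to 1.03) and 0.992 (0.392 to 2.10). The Cbx and Phc subunits and Pcgf2 were uncalled.

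The ASXL genes encode cofactors of BAP1, the enzyme that takes ubiquitin off histone H2A, and here Asxl2 and Asxl3 ran in opposite directions. Asxl2 stood at 241 CPM in progenitors and 107 CPM in neurons of MEN1-NCKO, and at 228 and 96.7 CPM in those of MEN1-F/F, ratios of 2.26 (1.94 to 2.61) and 2.35 (1.98 to 2.78). Asxl3 stood at 80.0 CPM in progenitors and 327 CPM in neurons of MEN1-NCKO, and at 119 and 329 CPM in those of MEN1-F/F, ratios of 0.244 (0.188 to 0.312) and 0.361 (0.287 to 0.449). Per Asxl2 molecule there were 0.332 Asxl3 molecules (0.247 to 0.441) in MEN1-NCKO progenitors and 0.522 (0.395 to 0.685) in MEN1-F/F progenitors, against 3.06 (2.92 to 3.21) and 3.40 (3.20 to 3.62) in the neurons. Within neurons Asxl3 was not uniform. It stood at 364 CPM in MEN1-NCKO and 373 CPM in MEN1-F/F upper-layer-like nuclei, but at 125 and 129 CPM in striatal-like nuclei. Bap1 itself was uncalled, with 4 and 5 UMIs in the progenitors of MEN1-NCKO and MEN1-F/F. Asxl1 was uncalled too, at 1.43 (1.23 to 1.67) in MEN1-NCKO and 1.28 (1.08 to 1.51) in MEN1-F/F.

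**Figure D2:**
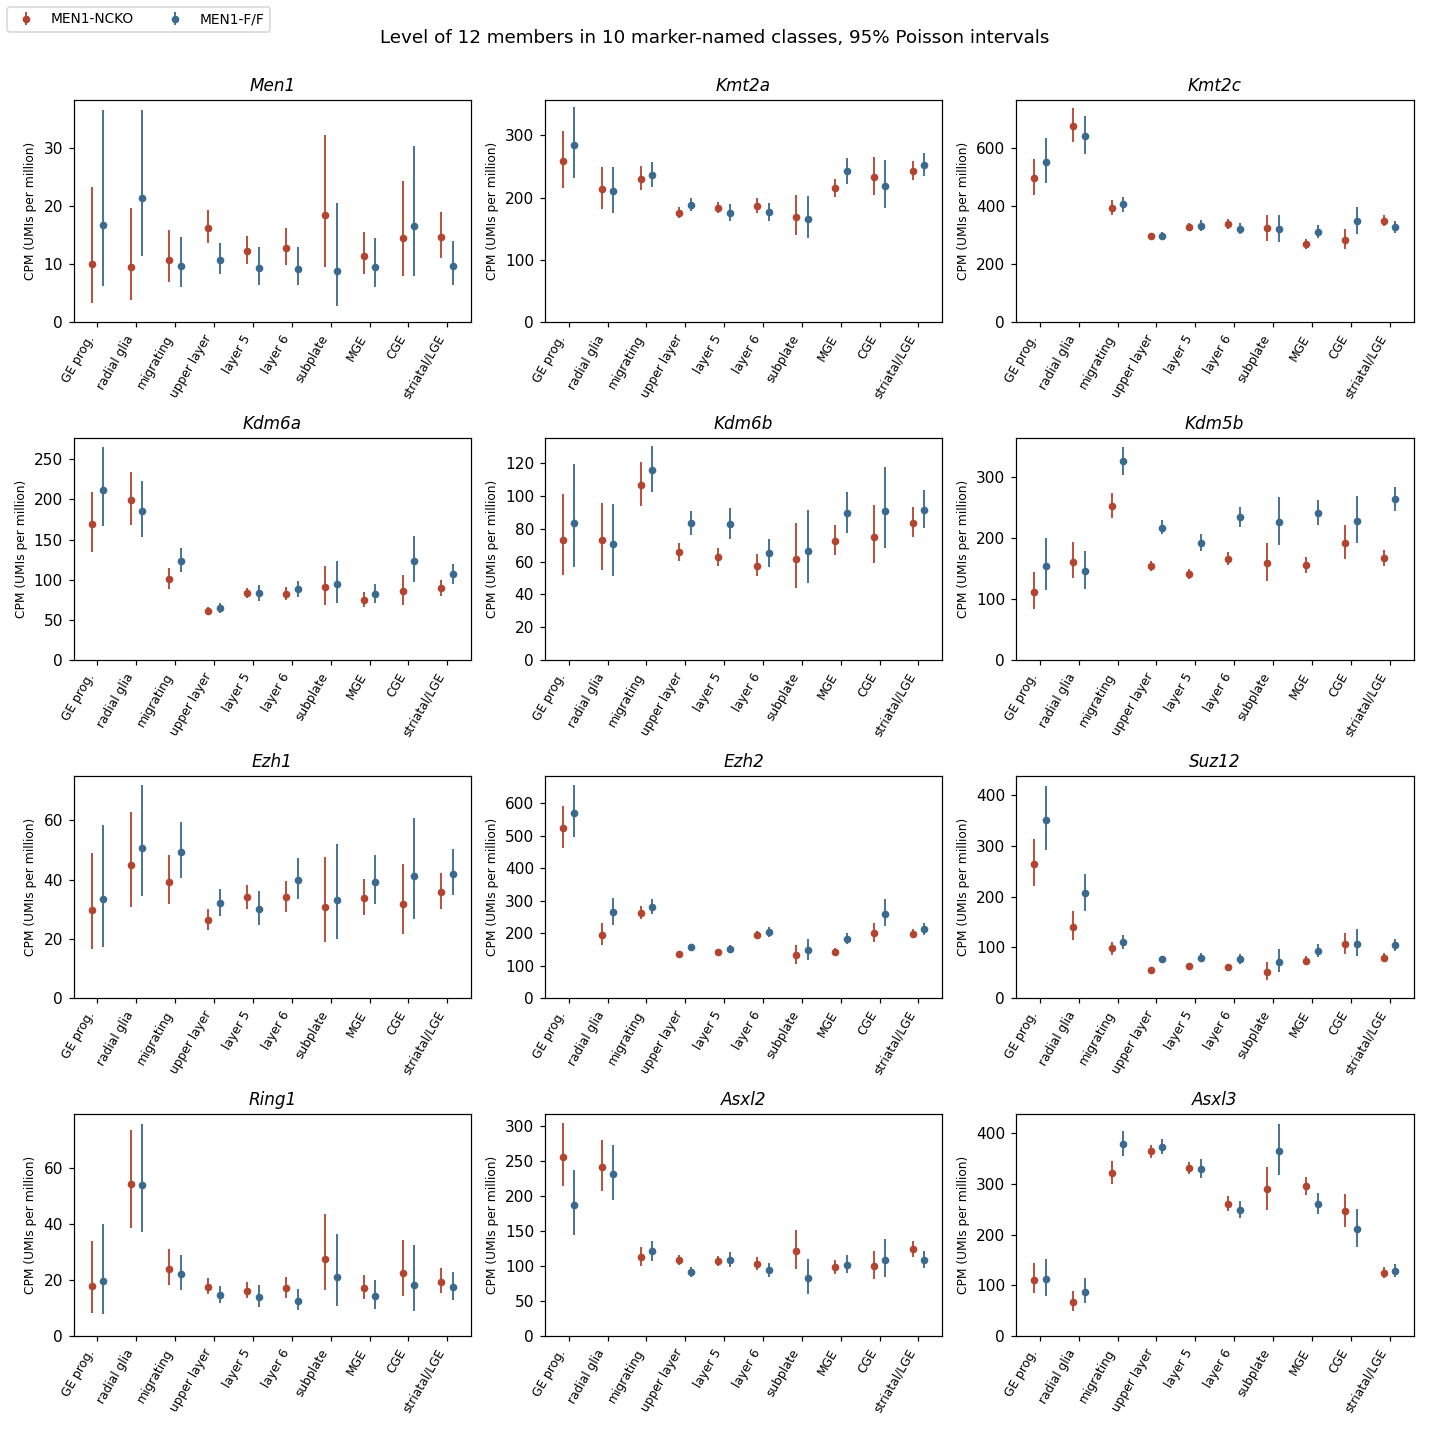
CPM of 12 members in 10 marker-named classes, MEN1-NCKO left and MEN1-F/F right in each pair, with 95% Poisson intervals of the counts. Ezh2 and Suz12 peak in ganglionic eminence progenitors (GE prog.), Kmt2c and Ring1 in radial glia, and Asxl3 is lowest in radial glia in MEN1-NCKO and in MEN1-F/F.

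The ganglionic eminence progenitor-like nuclei, called eminence progenitors below, gave a second comparison, added after the data had been seen. In the embryo the ganglionic eminences make the inhibitory neurons that migrate into the cortex. Against MGE-derived, CGE-derived and striatal-like neurons (2264 MEN1-NCKO and 1439 MEN1-F/F nuclei, called GABAergic neurons below), 17 of 37 members were called higher in both libraries, beside 22.0% of all 10253 genes, and 1 lower, beside 15.4%. Asxl3 was again the lower one, at 0.525 (0.395 to 0.684) in MEN1-NCKO and 0.584 (0.415 to 0.801) in MEN1-F/F. Kmt2c, Rbbp5, Kdm6a, Suz12 and Asxl2 were called higher in both lineages. Ring1 was not, at 17.9 and 18.8 CPM in eminence progenitors and GABAergic neurons of MEN1-NCKO and 19.5 and 16.2 CPM in those of MEN1-F/F.

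Of the 7 PRC2 genes, 6 were among these calls. Ezh2 stood at 524 CPM in eminence progenitors and 174 CPM in GABAergic neurons of MEN1-NCKO, and at 572 and 205 CPM in those of MEN1-F/F, ratios of 3.01 (2.63 to 3.43) and 2.79 (2.39 to 3.23). Suz12 gave the largest ratios, 3.31 (2.73 to 3.99) and 3.50 (2.86 to 4.25). Eed gave 2.41 (1.66 to 3.41) and 2.32 (1.37 to 3.72), and the histone chaperone subunit Rbbp4 gave 2.43 (2.01 to 2.93) and 2.11 (1.65 to 2.68). The subunit that was not called was Ezh1, at 0.865 (0.478 to 1.45) and 0.820 (0.418 to 1.46). There were 17.6 Ezh2 molecules per Ezh1 molecule (10.5 to 31.9) in MEN1-NCKO eminence progenitors and 17.1 (9.57 to 33.6) in MEN1-F/F ones, against 5.06 (4.46 to 5.75) and 5.03 (4.37 to 5.81) in the GABAergic neurons. Of 7 PRC1 genes with enough UMIs Rnf2 was called, and among the methyltransferase complexes Kmt2c, Ash2l, Rbbp5, Dpy30, Hcfc1 and Paxip1 were.

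The eminence progenitors were named partly from the division genes Top2a and Mki67, so their high level of cell cycle genes follows from the naming. The summed level of 20 cell cycle genes, Top2a and Mki67 included, was 2584 CPM in MEN1-NCKO and 2563 CPM in MEN1-F/F eminence progenitors, and 827 and 979 CPM in the cortical progenitors, against 89.1 and 86.1 CPM in the cortical neurons; its part in the members' levels was not tested. The progenitor clusters taken one by one, a split made after the data had been seen, held Ezh2 at widely differing levels. In radial glia cluster 11 the mitotic topoisomerase Top2a was near 0, with 2 UMIs in MEN1-NCKO and 1 in MEN1-F/F. There Ezh2 stood at 98.9 CPM (71.3 to 134) in MEN1-NCKO and 136 CPM (94.1 to 190) in MEN1-F/F. Both values were below those of the cortical neurons, but the MEN1-F/F interval included the neuronal level. In the radial glia cluster with Top2a at 831 CPM in MEN1-NCKO and 650.3 CPM in MEN1-F/F (cluster 35; 28 and 36 nuclei), Ezh2 stood at 524 CPM (393 to 686) and 512 CPM (399 to 646). In the intermediate progenitors Top2a rested on 1 UMI in MEN1-NCKO, at 13.3 CPM (0.335 to 73.8), and 4 UMIs in MEN1-F/F, at 45.2 CPM (12.3 to 116). Ezh2 stood there at 278 CPM (172 to 425) and 610.4 CPM (459 to 796). Whether Ezh2 followed Top2a over the clusters was not tested. Suz12 was above the neurons in every one of the 5 progenitor clusters in both libraries, and stood at 115 and 152 CPM in cluster 11. Kmt2c was high in all of them and stood at 730 CPM in MEN1-NCKO and 703 CPM in MEN1-F/F in cluster 11, and at 603 and 606 CPM in cluster 35. Asxl3 was at neuronal levels in the intermediate progenitors of MEN1-F/F, at 339 CPM (229 to 484), and at 212 CPM (121 to 344) in those of MEN1-NCKO. Cluster 11 had tied scores for radial glia (3.305) and astrocytes (3.359). It held 182 of the 310 MEN1-NCKO and 101 of the 223 MEN1-F/F radial glia-like nuclei. Cluster 33 scored 2.693 for radial glia and 2.822 for intermediate progenitors, so its name was close too. Without cluster 11, 7 of 40 members were higher in cortical progenitors, Ezh2 among them, beside 22.4% of all genes in that setting.

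**Figure D3:**
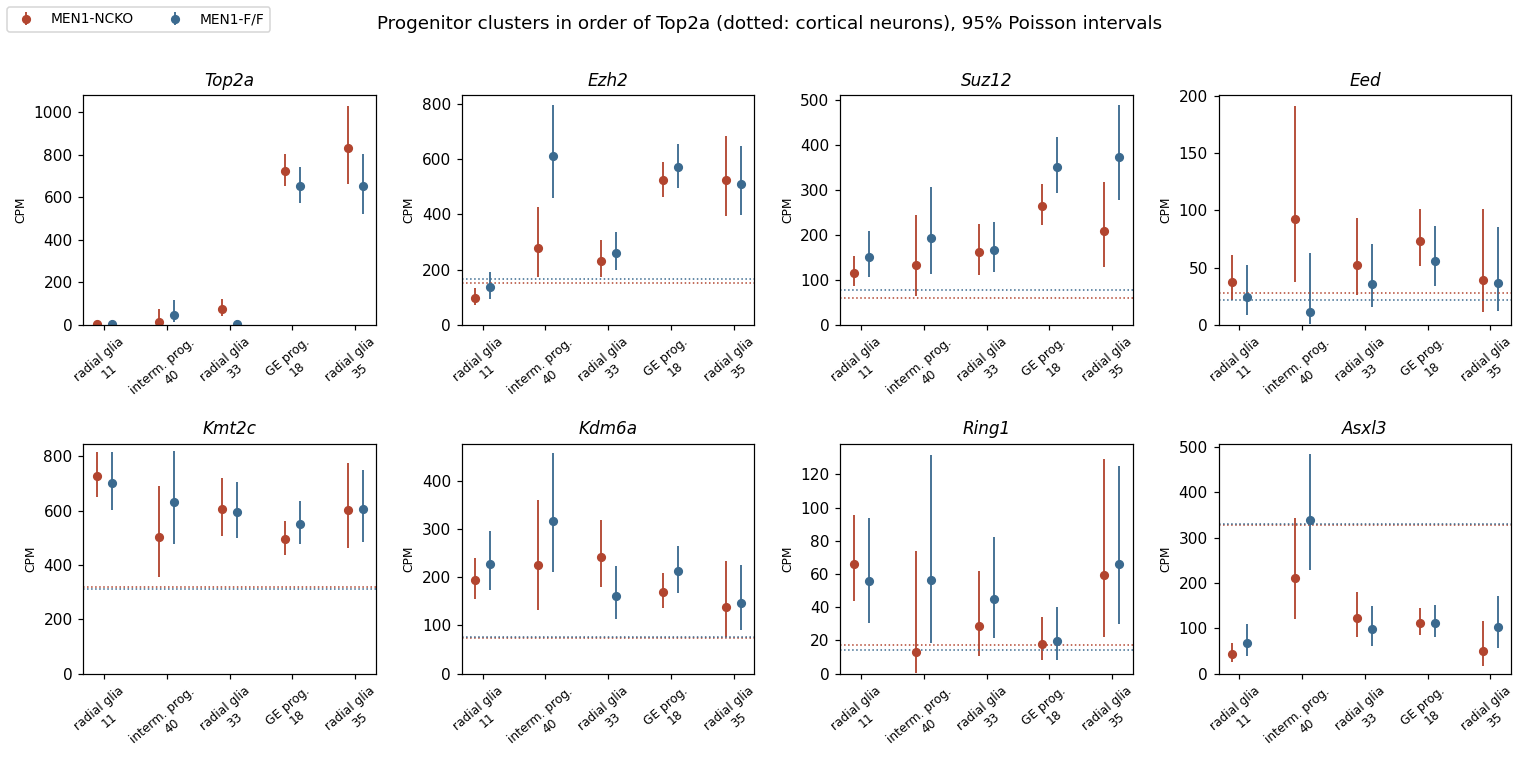
CPM of Top2a and 7 members in the 5 progenitor clusters, ordered by Top2a, MEN1-NCKO left and MEN1-F/F right, with 95% Poisson intervals and dotted lines at the level of cortical neurons in each library. Ezh2 reaches 524 CPM in MEN1-NCKO and 512 CPM in MEN1-F/F in cluster 35, while Kmt2c and Kdm6a stay above the neuronal lines in every cluster.

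Promoter windows of RefSeq (GRCm38.p6; 250 bases before to 50 after a gene's start) were matched for 33 of the 41 members and searched on both strands for the E2F-type motif, an octamer bound by the cell cycle factors of that family (TTTCCCGC, TTTCGCGC, TTTGCCGC or TTTGGCGC). Of 27025 genes with a window, 2.32% held it, and 2 members did: Ezh2 and Suz12. Their windows are shown with the motif in capitals, beside that of Ezh1, the uncalled PRC2 gene, which holds none. They lie at chr6:47594981-47595280 (minus strand), chr11:79992856-79993155 (plus strand) and chr11:101226414-101226713 (minus strand). A match is only a run of letters. The windows of Eed, Jarid2, Rbbp4 and Rbbp7, which were also higher in eminence progenitors, hold none. Of 15 members called higher there that have a window, 2 hold the motif. The members' windows held a median of 24 CpG dinucleotides, against 7 over all windows. Each motif holds a CpG itself, so the 2.32% is not a background matched for CpG.
Ezh2: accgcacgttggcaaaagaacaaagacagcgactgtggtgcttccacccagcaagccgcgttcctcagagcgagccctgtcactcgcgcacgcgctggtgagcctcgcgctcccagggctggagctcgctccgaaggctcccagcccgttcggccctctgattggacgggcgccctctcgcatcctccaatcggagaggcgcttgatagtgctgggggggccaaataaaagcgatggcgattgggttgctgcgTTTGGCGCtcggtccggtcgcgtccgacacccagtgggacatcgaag
Suz12: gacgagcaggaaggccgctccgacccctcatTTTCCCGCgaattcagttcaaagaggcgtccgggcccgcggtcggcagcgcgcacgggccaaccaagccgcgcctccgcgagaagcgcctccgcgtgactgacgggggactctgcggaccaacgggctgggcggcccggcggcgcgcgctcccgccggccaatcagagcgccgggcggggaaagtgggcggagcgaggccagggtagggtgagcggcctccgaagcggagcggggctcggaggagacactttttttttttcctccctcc
Ezh1: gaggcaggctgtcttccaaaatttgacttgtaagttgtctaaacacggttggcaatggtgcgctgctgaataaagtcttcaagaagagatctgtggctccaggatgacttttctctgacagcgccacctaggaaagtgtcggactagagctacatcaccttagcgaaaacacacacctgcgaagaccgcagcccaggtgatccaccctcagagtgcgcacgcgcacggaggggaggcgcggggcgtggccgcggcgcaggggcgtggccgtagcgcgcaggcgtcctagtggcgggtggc

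Between the libraries no member passed 1.5-fold over all kept nuclei: 0 of 41, beside 1.17% of all 17165 genes. The members' log2 differences of MEN1-NCKO over MEN1-F/F spanned -0.49 to 0.31 with a median of 0.03, beside 0.02 over all genes, and 22 lay above 0. In cortical neurons 0 of 41 passed (background 2.02%), and in upper-layer-like nuclei 0 of 40 (4.58%). In cortical progenitors 4 of 27 passed (12.3%): Rnf2, Eed and Phc2 higher and Ezh2 lower. There Rnf2 stood at 92.3 CPM in MEN1-NCKO and 50.1 CPM in MEN1-F/F, Eed at 46.8 and 28.6 CPM, and Phc2 at 124 and 77.3 CPM. Without doublet removal the count was 1, with Phc3 in place of these 4, and the log2 difference of Phc2 was -0.042, against 0.65 with it; with all deposited barcodes the count was again 1 and the value -0.052.

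The largest difference among the members over all nuclei was in Kdm5b, which erases lysine 4 trimethylation. Kdm5b stood at 161 CPM (157 to 165) in MEN1-NCKO and 229 CPM (223 to 234) in MEN1-F/F, a ratio of 0.705 (0.681 to 0.730). It passed 1.5-fold in MGE-derived-like nuclei, at 155 CPM in MEN1-NCKO against 242 CPM in MEN1-F/F, and in striatal-like nuclei, at 167 against 264 CPM. It was below 1 in 9 of 10 classes, with radial glia the exception at 161 against 146 CPM, a ratio of 1.11 (0.834 to 1.47). All classes come from the same pair of libraries, so their directions are not independent. The other demethylases lay on the same side over all nuclei: Kdm6b at 0.818 (0.774 to 0.865), Kdm5a at 0.837 (0.799 to 0.877), Kdm1a at 0.943 (0.911 to 0.977) and Kdm6a at 0.948 (0.901 to 0.998).

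PRC2 subunits lay on both sides. Suz12 stood at 75.1 CPM in MEN1-NCKO and 94.5 CPM in MEN1-F/F over all nuclei, a ratio of 0.794 (0.754 to 0.838), and was below 1 in 10 of 10 classes. Ezh2 was below 1 in 10 of 10 classes too, at 170.3 against 193 CPM over all nuclei, a ratio of 0.881 (0.850 to 0.914). In cortical progenitors Ezh2 stood at 203 CPM in MEN1-NCKO and 309 CPM in MEN1-F/F, a ratio of 0.657 (0.533 to 0.808). That population mixed 310 radial glia-like with 33 intermediate progenitor-like nuclei in MEN1-NCKO and 223 with 39 in MEN1-F/F. Within radial glia the ratio of Ezh2 was 0.736 (0.584 to 0.927). By cluster, Ezh2 was lower in MEN1-NCKO in intermediate progenitor cluster 40, at 278 CPM (172 to 425) against 610.4 CPM (459 to 796) in MEN1-F/F. Ezh2 stood at 98.9 against 136 CPM in cluster 11, 232 against 260.0 CPM in cluster 33 and 524 against 512 CPM in cluster 35, with intervals that overlapped in each. Cluster 33 was unlike in Top2a between the libraries, at 75.8 CPM (16 UMIs) in MEN1-NCKO and 4.48 CPM (1 UMI) in MEN1-F/F. The part of that in the Ezh2 values was not tested. With the clusters weighted as in MEN1-F/F the log2 difference of Ezh2 was -0.32, short of 1.5-fold, against -0.59 without the weights. Eed lay on the other side, at 30.8 CPM in MEN1-NCKO and 24.0 CPM in MEN1-F/F over all nuclei, a ratio of 1.28 (1.17 to 1.41), and above 1 in the 9 classes with enough UMIs. Ezh1 was at 0.892 (0.821 to 0.968) over all nuclei.

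The remaining calls were scattered single genes. In radial glia-like nuclei 2 of 26 passed (background 12.5%), Rnf2 at 92.3 CPM in MEN1-NCKO against 55.7 CPM in MEN1-F/F and Phc2 at 125 against 75.4 CPM, a log2 difference of 0.69 that was -0.09 after thinning each nucleus to 1000 UMIs. In migrating neuron-like nuclei 2 of 36 passed (7.78%), Hcfc1 at 38.1 against 23.4 CPM and Bmi1 at 23.1 against 11.5 CPM. A single member passed in layer 5-like nuclei (1 of 38, 2.91%), Phc1 at 30.3 against 17.7 CPM, and 1 in CGE-derived-like nuclei (1 of 26, 9.5%), Rnf2 at 69.0 against 36.3 CPM. Kdm5b was the call in MGE-derived-like nuclei (1 of 37, 5.96%) and in striatal-like nuclei (1 of 37, 4.79%). None passed in layer 6-like (0 of 37, 4.72%), subplate-like (0 of 21, 11.5%) or eminence progenitor-like nuclei (0 of 24, 14.8%). Over the 10 classes this made 8 of 322 values, or 2.48%, against 6.57% of 83429 values over all genes.

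**Figure D4:**
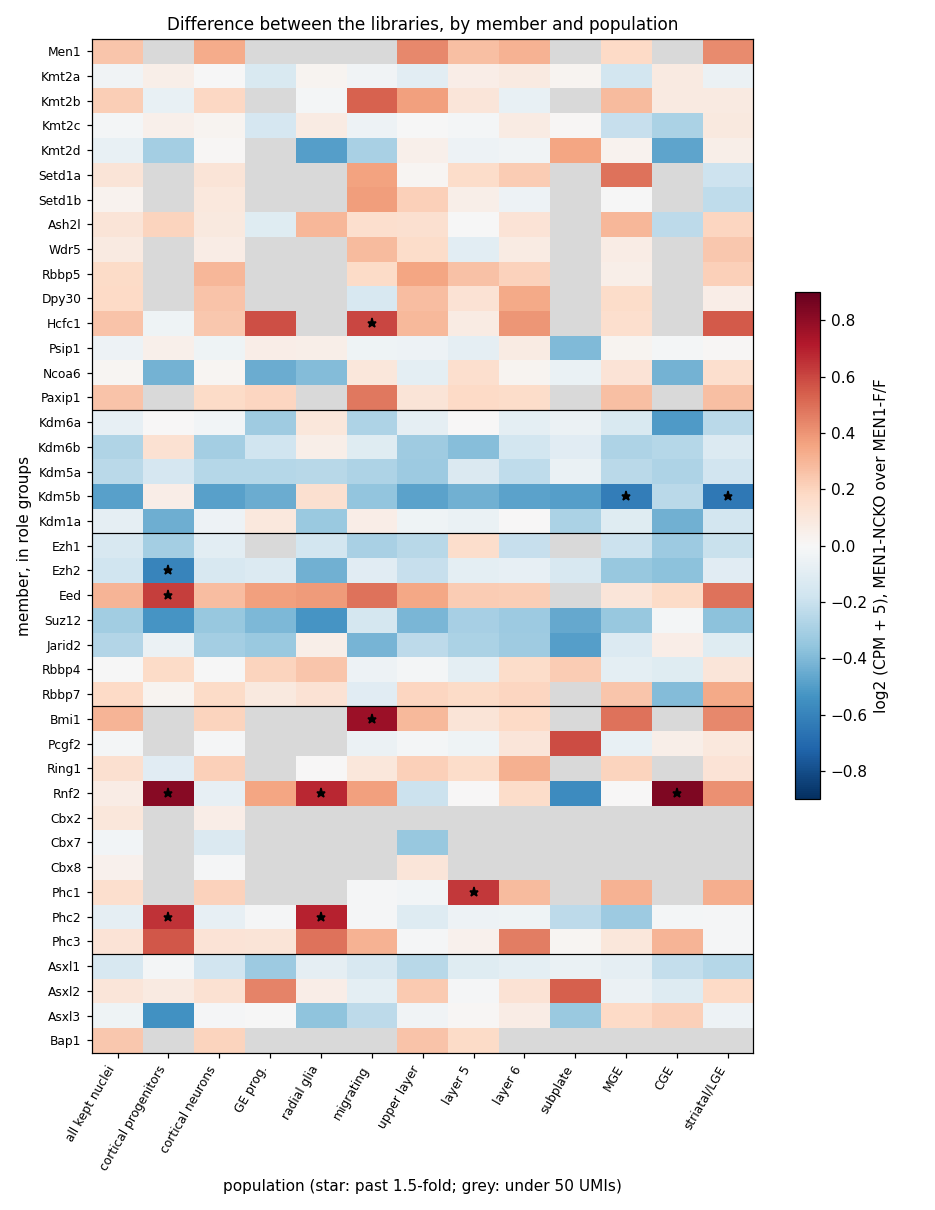
Colour gives log2 of CPM plus 5 in MEN1-NCKO over MEN1-F/F for each member (rows, in role groups) in 13 populations (columns); stars mark 1.5-fold and grey cells hold under 50 UMIs in the 2 libraries together. Kdm5b is below 0 in every column but cortical progenitors and radial glia, and the first column holds no star.

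Gene length moved with the sign of these differences. Over all nuclei, 16 of 19 members that span under 30 kb lay above 0 on the log2 scale with a median of 0.15, and 6 of 22 longer members did, with a median of -0.06. Over all genes the shares above 0 were 59.0% and 50.5%, with medians of 0.03 and 0.00. In nuclear RNA long genes contribute many reads from introns; the part of length in the differences of single members was not tested. By role, 11 of 15 menin and methyltransferase genes, 7 of 10 PRC1 genes, 2 of 7 PRC2 genes and 0 of 5 demethylases lay above 0. These counts are to be read against the 59.0% and 50.5% of all genes above. Role and length were not separated, and among the demethylases only Kdm6b spans under 30 kb.

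Genes of the same pathways outside the 41 were listed for comparison. Of 18 other demethylases and cofactors with enough UMIs, 2 passed 1.5-fold between the libraries over all nuclei, both lower in MEN1-NCKO: Kdm3a, a lysine 9 demethylase, at 49.96 CPM in MEN1-NCKO against 89.8 CPM in MEN1-F/F, and Kdm7a at 44.1 against 76.5 CPM. None of 15 other methyltransferase genes, 28 other Polycomb genes or 9 menin partners passed. In the progenitor comparison 6 of 27 other Polycomb genes were higher in cortical progenitors and 0 lower, beside the 21.0% and 15.2% of all genes given above, so the share was near the background. Among them Pcgf5, a ring finger protein of variant PRC1, stood at 88.6 CPM in progenitors and 7.89 CPM in neurons of MEN1-NCKO and at 107 and 12.99 CPM in those of MEN1-F/F, ratios of 11.2 (8.41 to 14.9) and 8.26 (6.22 to 10.9). Of 17 other demethylases 6 were higher, of 13 other methyltransferases 3 higher and 1 lower, and of 9 menin partners 1 higher, to be read against the same 21.0% and 15.2%. That partner was Aff1, a subunit of elongation complexes that MLL fusions recruit, at 70.2 and 9.71 CPM in progenitors and neurons of MEN1-NCKO and 54.4 and 10.2 CPM in those of MEN1-F/F.

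Hox genes, the best known targets of menin and MLL1 and of Polycomb, were almost absent. All 39 together had 7 UMIs in MEN1-NCKO and 8 UMIs in MEN1-F/F over all kept nuclei, and 0 in the cortical progenitors of both libraries, where a limit of 3 counts for a count of 0 allows up to 3.69 CPM in MEN1-NCKO and 4.29 CPM in MEN1-F/F.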

How the data were processed

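The authors deposited raw UMI counts per gene and barcode, 1 matrix per library, which the file headers trace to Cell Ranger 6.1.0, on mm10 per the submitters' processing notes, which also name Seurat. Barcodes with under 500 genes or over 5% mitochondrial UMIs were removed, as were the nuclei with the highest simulated-doublet scores (924 MEN1-NCKO, 336 MEN1-F/F; 0.8% per 1000 barcodes). Both libraries were clustered jointly (2000 variable genes without members, 30 components, 20 neighbours, Leiden resolution 1; leidenalg 0.10.2, scikit-learn and numpy under Python). The 44 clusters were named from marker lists by a rule settled after clusters had been seen, and 8 stayed unnamed. Names mean "like" and may differ from the study's own. Counts were summed per class and library as CPM; the call was 1.5-fold on CPM + 5 with at least 50 UMIs and, between libraries, 100 nuclei per class. Ratio intervals are exact conditional binomial. The fixed naming rule takes every member called, plus Men1, Kmt2a, Kdm6a, Kdm6b, Ezh1 and Ezh2, and gives others by range; further members named here (such as Kmt2d, Psip1 and Bmi1) were chosen after their values were seen. Ratios and intervals were tested on counts simulated as independent Poisson draws, the model behind the intervals. Variation between nuclei or libraries was not simulated. The members and lists were chosen with earlier results of these data known. Gene positions are GENCODE vM21 (GRCm38); 8 members overlap another coding gene, among them Kdm5a, Kdm1a, Rbbp4, Rbbp7 and Rnf2, and the sources do not state whether counting used strand. Alternatives changed the pseudocount, minimum, filters, clustering, class definition and depth (thinning to 1000 UMIs).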

Additional observations from a re-analysis of the deposited data

Results flagged for a closer look

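The difference of Men1 between MEN1-NCKO and MEN1-F/F had opposite directions in cortical progenitors and cortical neurons. The ratio of MEN1-NCKO over MEN1-F/F was 0.405 (95% counting interval 0.151 to 0.989) in progenitors, from 8 and 17 UMIs, and 1.39 (1.13 to 1.72) in neurons, from 297 and 134 UMIs. No other member had both counting intervals on opposite sides of 1, in this pair of populations or in eminence progenitors and GABAergic neurons. The difference between the 2 ratios was not tested, and the progenitor ratio rests on counts under the minimum of 50 UMIs.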

How the results depend on the processing

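No paired analysis was possible because each genotype had 1 library. Of 952 values of 57 results under 22 alternatives, 786 kept their place, 154 moved and 12 changed direction. A change of direction was counted only for values past 1.5-fold in the main setting. Smaller values that crossed 0 were counted as kept or moved. Among these, Ezh2 in MEN1-NCKO, progenitors over neurons, fell as low as -0.59 on the log2 scale and Kmt2a to -0.28. The settings on single clusters, on eminence progenitors and without the tied cluster were chosen after seeing the data. The cause of a change was not tested. The count of members higher in cortical progenitors was 4 to 9 in the planned settings, 17 of 37 in the eminence lineage, 10 in radial glia cluster 33 alone and 11 in cluster 35 alone. The count lower was 3 in cluster 11, 2 in cluster 33 and 5 in cluster 35. The share of all genes called in these single clusters is not given here, so their counts are not read as a result about the members. Cluster 35 held 28 MEN1-NCKO and 36 MEN1-F/F nuclei. Between libraries, cortical progenitors had 4 members past 1.5-fold, but 1 with a pseudocount of 20 CPM, 1 without doublet removal, 1 with all deposited barcodes and 8 with no UMI minimum. Cortical neurons had 1 after thinning, and upper-layer-like nuclei 1 with a pseudocount of 1 CPM and 1 after thinning. Counted changes of direction are given as log2, progenitors over neurons. With intermediate progenitors alone they were Asxl3 in MEN1-F/F at 0.043, Rbbp5 in MEN1-F/F at -0.26 and Ring1 in MEN1-NCKO at -0.27. In the eminence lineage they were Ezh1 in MEN1-F/F at -0.25 and Ring1 in MEN1-NCKO at -0.057. In single clusters they were Ezh2 at -0.29 in cluster 11, Men1 at -0.28 in cluster 35 and Rbbp5 at -0.084 in cluster 33, all in MEN1-F/F, and Rbbp5 in MEN1-NCKO at -0.005 in cluster 33. Phc2, MEN1-NCKO over MEN1-F/F, was at -0.042 in cortical progenitors without doublet removal, -0.052 with all barcodes and -0.09 in radial glia after thinning. Depth limits the cortical progenitors, where Men1, Setd1a, Bmi1, Cbx2, Cbx7, Cbx8 and Bap1 had 17 UMIs or fewer in each library.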

Other observations

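Glial and other small classes, which entered the comparisons above only through all kept nuclei, held the same members at differing levels. Asxl3 was lowest in astrocyte-like nuclei, at 32.7 CPM in MEN1-NCKO and 21.1 CPM in MEN1-F/F, and stood at 149.8 and 129.7 CPM in oligodendrocyte precursor-like nuclei. Asxl2 reached 439 CPM (321 to 586) in the 43 microglia-like nuclei of MEN1-NCKO and 322 CPM (202 to 487) in the 22 of MEN1-F/F, above the 107 and 96.7 CPM of cortical neurons. Ezh2 stood at 287 and 292 CPM in astrocyte-like nuclei, and at 115 and 122 CPM in Cajal-Retzius-like nuclei, which are early-born neurons of the cortical surface. Kmt2c was at 563 CPM in MEN1-NCKO and 499.8 CPM in MEN1-F/F in the astrocyte-like nuclei.

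Across the 10 larger classes, 20 members had at least 20 UMIs in every class of both libraries. For these the correlation between the libraries of log2(CPM + 5) over the 10 classes ranged from 0.22 (Ncoa6) to 0.98 (Kdm5a), with a median of 0.90; the classes come from a joint clustering. Ganglionic eminence progenitors were the highest class in both libraries for 20 of the 41 members, and radial glia for 3 (Kmt2c, Ezh1 and Ring1). The share over all genes was not computed, so these counts are not read as a trait of the members. Some of the 20 rest on few molecules. In MEN1-NCKO and MEN1-F/F eminence progenitors Cbx8 had 4 and 4 UMIs, Bap1 6 and 3, and Setd1a 9 and 5.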
